A study of Mus musculus with 6 samples.

Results

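Fos, Fosb, Fosl1, Fosl2, Jun, Junb, Jund, Egr1, Myc and Ier3 were followed in P13 mouse kidneys with and without TfR1, the transferrin receptor that brings iron into cells. These 10 genes were taken by their symbols from the 24422 genes in the count tables. Poly-A RNA was counted in 6 whole-kidney libraries, 3 per group, all from C57BL/6 mice at postnatal day 13 on an iron sufficient diet with 220 ppm iron. The Control group was labelled wild type. The TfR1 knockout group was labelled Tfr1f/f;SixCre and carried floxed Tfr1 with Six2Cre, which is active in the progenitors of the nephron tubules and not in the collecting ducts, vessels or stroma. Some tubule cells were described by the study as escaping the deletion, so the knockout kidneys held a mixture of cells. The comparison asked how these genes differed between the groups. Whole tissue was measured, so fewer cells of a type and less RNA per cell cannot be told apart.

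Immediate early genes are transcribed within minutes of a stimulus, without new protein synthesis. Growth factors reach them through the MAP kinase cascade, which activates the serum response factor and its Elk partners, and cyclic AMP or calcium reach them through CREB. Fos and Jun proteins pair to form AP-1, which binds DNA at AP-1 sites, and Egr1 is a zinc finger factor induced in the same way. Myc drives ribosome production and growth with its partner Max, and Ier3 is a stress and growth factor response gene that modulates cell survival. In kidney tubules, this set is known for its rapid rise after injury.

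Total counts ran from 16591156 to 22898008 per library. Several libraries stood apart. TfR1 knockout replicate 1 had the highest value of all 6 libraries for 6 of the 7 genes that could be tested, and for Fos and Fosb, whereas it was the highest library for 15.6% of the 16509 genes tested. Control replicate 1 held adrenal transcripts, with a sum of 18773 normalized counts over Star, Cyp11b1, Cyp21a1 and Cyp11a1, and TfR1 knockout replicate 3 held 2311, against 149 to 366 in the other 4 libraries. Ddx3y exceeded Xist in Control replicate 2 and in TfR1 knockout replicates 1 and 3, and Xist exceeded Ddx3y in the other 3 libraries, so the sexes were mixed in both groups. TfR1 knockout replicate 3 held both transcripts, with 2347 normalized counts of Ddx3y and 1031 of Xist, where Xist was 78.2 and 145 in the other libraries with more Ddx3y, so its sex was less clear. Tfrc, which encodes TfR1, measured 5534, 6485 and 3667 normalized counts in Control and 6976, 4045 and 5898 in knockout libraries. Its groups overlapped (log2 fold change 0.11 ± 0.29 SE, DESeq2 adjusted p = 0.853, edgeR adjusted p = 0.845). Reads outside the floxed exons and from cells without Cre enter this count, so it does not check the labels. Kidney markers of the proximal tubule, thick ascending limb, podocyte and collecting duct were present in every library. Control replicate 3 differed from the other Control libraries in these sums. Its proximal tubule markers summed to 53133 normalized counts, against 103873 and 102853 in Control replicates 1 and 2 and 41496 to 58058 in knockout libraries. Its thick ascending limb sum was 45672, against 84637 and 93083, and its stroma sum 100192, against 50404 and 48580.

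Of the 10 genes, Fosl2, Jun, Junb, Jund and Egr1 rose in TfR1 knockout kidneys by DESeq2, Jund near the threshold (DESeq2 adjusted p = 0.0453). These were 5 of the 7 genes that received an adjusted p from DESeq2, where 7.74% of all tested genes were higher and 7.18% lower at the same threshold of 0.05. At a change of at least 2-fold, 4 of the 7 passed, against 4.41% of all tested genes. Myc and Ier3 did not pass. Fos and Fosb received no p from DESeq2, because TfR1 knockout replicate 1 exceeded its outlier limit, and Fosl1 had too few counts. edgeR's quasi-likelihood test called Fosl2, Jun and Egr1 higher, where 3.22% of its 15308 genes were called higher. Every knockout library lay above every Control library for 5 of the 7 tested genes, against 16.9% of the 16509 genes tested. Every fitted fold change of the 9 genes with enough counts was positive, in each alternative analysis.

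TfR1 knockout replicate 1 was then left out. DESeq2 gave 9 of the genes an adjusted p and called 5 of them higher, where 9.56% of all tested genes were called higher. These 5 were Fos, Fosl2, Jun, Junb and Egr1, with Fos added and Jund lost. Of these, edgeR without the same library called Fosl2, Jun and Egr1. With Control replicate 1 and TfR1 knockout replicate 3 left out together, the libraries with the most adrenal transcripts, DESeq2 called Egr1 and every AP-1 gene but Fosl1 higher, 7 in all. Over all genes, that fit called 421 higher, and it had 2 libraries per group and no outlier filter.

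**Figure D1:**
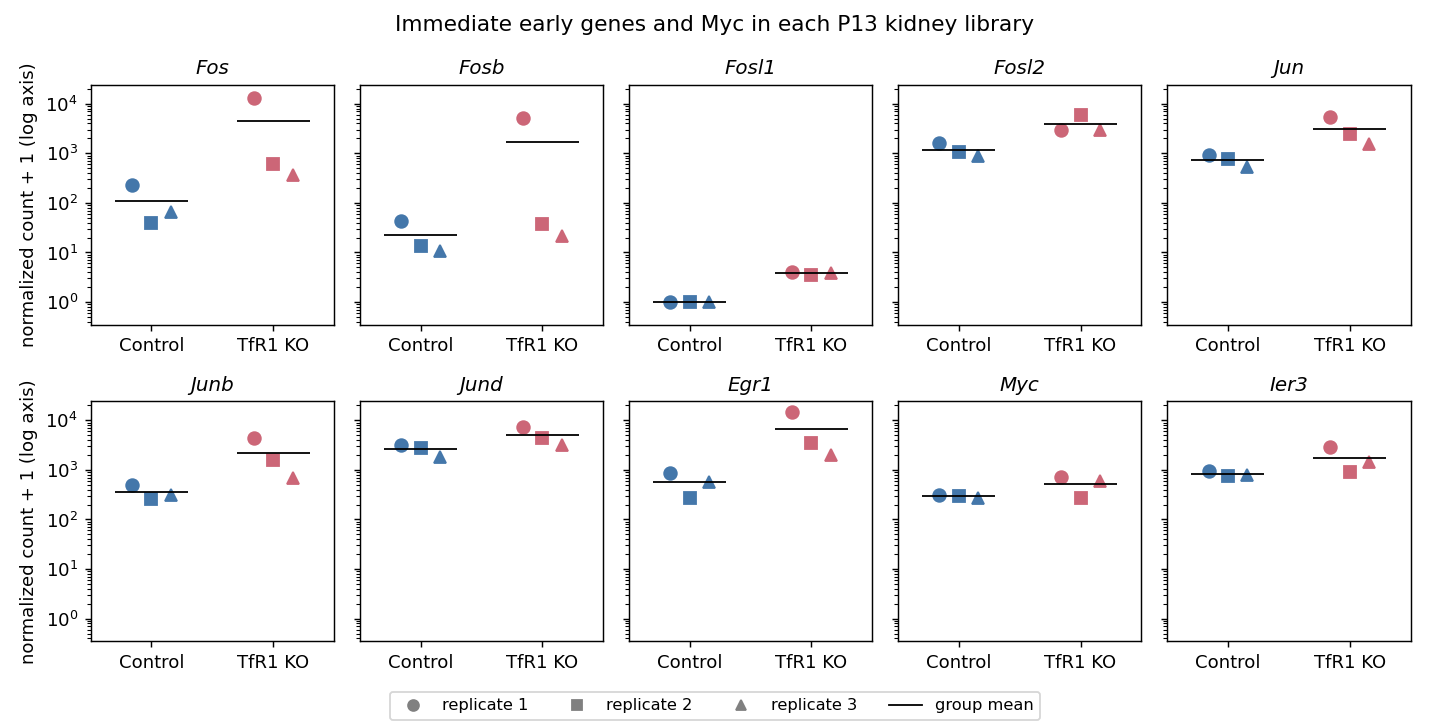
Normalized counts plus 1 (log axis) of the 10 genes in each library, by group, with symbols for the replicate numbers and lines for group means. For Fos, Fosb, Jun, Junb and Egr1 the knockout libraries spread widely, with replicate 1 highest; for Fosl2, replicate 2 was highest.

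The promoters of Fos, Fosb, Jun and Junb are shown because, of the genes with a window, these stood highest in TfR1 knockout replicate 1 relative to the mean of the other knockout libraries (26.4, 180.2, 2.68 and 3.91 times). RefSeq promoter windows were available for 7 of the 10 genes, each running from 250 bases before the transcript start to 50 after it. Each window matched the mm9 genome (NCBIM37) exactly in 1 place. The Fos window lies at chr12:86814590-86814889 on the plus strand, Fosb at chr7:19895345-19895644 on the minus strand, Jun at chr4:94718864-94719163 on the minus strand and Junb at chr8:87502598-87502897 on the minus strand. Capitals mark TGACG, the core of the cyclic AMP response element, TATAAA, the letters of a TATA box, and CCAAT, the CCAAT box, on either strand.
Fos: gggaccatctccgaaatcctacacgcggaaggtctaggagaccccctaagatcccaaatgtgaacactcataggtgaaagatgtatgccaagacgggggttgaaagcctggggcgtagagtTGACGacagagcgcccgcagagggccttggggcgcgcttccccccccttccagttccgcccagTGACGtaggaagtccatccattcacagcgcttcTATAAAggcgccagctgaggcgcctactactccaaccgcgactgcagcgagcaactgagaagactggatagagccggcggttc
Fosb: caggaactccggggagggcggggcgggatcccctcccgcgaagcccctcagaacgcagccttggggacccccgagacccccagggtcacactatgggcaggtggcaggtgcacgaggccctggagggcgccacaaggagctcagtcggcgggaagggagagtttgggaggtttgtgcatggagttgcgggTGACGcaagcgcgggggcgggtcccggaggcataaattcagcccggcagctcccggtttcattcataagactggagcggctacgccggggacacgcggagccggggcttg
Jun: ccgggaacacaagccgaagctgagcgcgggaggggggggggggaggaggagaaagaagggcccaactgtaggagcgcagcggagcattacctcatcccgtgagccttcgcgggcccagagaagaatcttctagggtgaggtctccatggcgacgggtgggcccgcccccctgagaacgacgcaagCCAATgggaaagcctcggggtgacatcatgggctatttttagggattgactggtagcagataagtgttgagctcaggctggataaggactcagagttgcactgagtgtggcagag
Junb: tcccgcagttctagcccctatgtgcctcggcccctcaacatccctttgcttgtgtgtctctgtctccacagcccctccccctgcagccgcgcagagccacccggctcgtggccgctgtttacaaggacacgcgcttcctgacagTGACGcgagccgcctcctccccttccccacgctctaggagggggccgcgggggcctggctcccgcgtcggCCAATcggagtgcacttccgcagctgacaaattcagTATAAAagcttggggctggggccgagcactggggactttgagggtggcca
TGACG was in the Fos window at 2 places and in the Fosb and Junb windows at 1 place each, and 20.8% of the 32851 promoter windows of the table held it. TATAAA was in the Fos window from base -33, counted from the RefSeq transcript start, and in the Junb window from base 1, at that start, and 13.6% of all windows held it. CCAAT was in the Jun, Junb and Ier3 windows, and 37.4% of all windows held it. The AP-1 site TGANTCA, the Myc E-box CACGTG and the CArG box of serum response factor were searched on both strands, and none of the 7 windows had those letters. They were in 7.81%, 7.15% and 1.63% of all windows. Sequence outside the windows and variants of these letters were not searched, so such sites may still be present. No motif overlapped another in the 4 windows printed.

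Fos, the founding AP-1 partner of Jun, was higher in every knockout library, by amounts that differed widely between them. It measured 227, 38.2 and 64.6 normalized counts in the Control libraries (replicates 1, 2 and 3 in order, as for each gene that follows) and 12788, 601 and 368 in the knockout libraries. The groups did not overlap, and TfR1 knockout replicate 1 was 21.3 times the next knockout library. The fitted log2 fold change was 5.38 ± 1.5 (SE) with all libraries and no DESeq2 p, and edgeR gave an adjusted p of 0.0847. It was 2.14 ± 0.66 without that library (DESeq2 adjusted p = 0.0103, edgeR adjusted p = 0.107). Without Control replicate 1, which held the adrenal transcripts and the highest Control value of Fos, it was 6.47 (DESeq2 adjusted p = 0.00499). Without Control replicate 2 it was 4.97 and without Control replicate 3 it was 5.11 (DESeq2 adjusted p = 0.0577 and 0.0402). Each of these fits kept TfR1 knockout replicate 1. The part of the adrenal transcripts in the result was not tested. Fos lies at chr12:86814840-86818223 on the plus strand.

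Fosb, a Fos relative induced by the same stimuli, was high in TfR1 knockout replicate 1 alone. It measured 42.9, 12.7 and 9.69 normalized counts in Control and 5102, 35.8 and 20.8 in knockout libraries. Knockout replicates 2 and 3 lay below Control replicate 1, so the groups overlapped. The log2 fold change of 6.30 ± 1.93 (SE) had no DESeq2 p, and edgeR gave an adjusted p of 0.123. It was 0.36 ± 0.82 without TfR1 knockout replicate 1 (DESeq2 adjusted p = 0.805).

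Fosl1, which encodes the Fos relative Fra-1, was barely detected. It had 0 counts in each Control library and 3, 2 and 3 counts in the knockout libraries. Both groups were at or under the floor of 3 counts, so no fold is given. Ccdc85b overlaps it on the opposite strand.

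Fosl2, which encodes the Fos relative Fra-2, rose, and differed from Fos in which library was highest. It measured 1608, 1048 and 874 normalized counts in Control and 2896, 6040 and 2936 in knockout libraries. TfR1 knockout replicate 2 was the highest, and the groups did not overlap. The log2 fold change was 1.75 ± 0.36 (SE), a 3.36-fold rise (DESeq2 adjusted p = 4.47e-05, edgeR adjusted p = 0.0349). The call held in every alternative, with adjusted p from 9.73e-08 (DESeq2 with the replicate block) to 0.0354 (edgeR without TfR1 knockout replicate 1).

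Jun, the main partner of Fos in AP-1, rose. It measured 909, 772 and 534 normalized counts in Control and 5431, 2490 and 1570 in knockout libraries, and the groups did not overlap. The log2 fold change was 2.10 ± 0.43 (SE), a 4.28-fold rise (DESeq2 adjusted p = 4.04e-05, edgeR adjusted p = 0.0413). Leaving out TfR1 knockout replicate 1 gave 1.46 ± 0.32 (DESeq2 adjusted p = 1.38e-04, edgeR adjusted p = 0.0355), and the DESeq2 call held in every alternative. BC042782 starts inside Jun on the opposite strand, and without a stated strand setting reads from the pair cannot be told apart.

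Junb, a Jun relative that often restrains growth, rose by DESeq2. It measured 505, 260 and 304 normalized counts in Control and 4414, 1583 and 674 in knockout libraries. The groups did not overlap, although knockout replicate 3 lay close to Control replicate 1. Junb had a log2 fold change of 2.64 ± 0.57 (SE), a 6.24-fold rise (DESeq2 adjusted p = 9.76e-05), and edgeR gave an adjusted p of 0.0585. The DESeq2 call was lost without Control replicate 2 (adjusted p = 0.108) or without Control replicate 3 (adjusted p = 0.0701), and remained without TfR1 knockout replicate 1 (log2 fold change 1.66, adjusted p = 0.00188).

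Jund, the Jun relative that is expressed steadily in resting cells, rose least of the Jun genes. It measured 3181, 2738 and 1815 normalized counts in Control and 7329, 4368 and 3197 in knockout libraries. The groups did not overlap, but Control replicate 1 and knockout replicate 3 were nearly equal. The log2 fold change was 0.95 ± 0.35 (SE), and the DESeq2 adjusted p of 0.0453 was near the threshold. edgeR gave an adjusted p of 0.137, and the call was lost under other size factors, in each fit that left out a single library other than TfR1 knockout replicate 3, and with library sex as a covariate (adjusted p = 0.0918). Its log2 fold change was 0.55 without TfR1 knockout replicate 1 (DESeq2 adjusted p = 0.194). Gm11175 lies inside Jund on the opposite strand.

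Egr1, the zinc finger early response factor, rose, and its call held in every alternative. It measured 846, 265 and 562 normalized counts in Control and 14450, 3527 and 2016 in knockout libraries. Every knockout library was above every Control library, and knockout replicate 1 was 4.10 times the next. The log2 fold change was 3.58 ± 0.95 (SE), an 11.9-fold rise (DESeq2 adjusted p = 0.00271, edgeR adjusted p = 0.0464). It was 2.31 ± 0.47 without that library (DESeq2 adjusted p = 2.10e-05, edgeR adjusted p = 0.0403), and 4.0 without Control replicate 1 (DESeq2 adjusted p = 0.00572). Egr1 lies on chromosome 18, where Gm17507 overlaps its end on the opposite strand.

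Ier3 did not pass the test. It measured 968, 764 and 781 normalized counts in Control and 2832, 887 and 1463 in knockout libraries, and knockout replicate 2 lay below Control replicate 1. Its log2 fold change was 1.04 ± 0.39 (SE, DESeq2 adjusted p = 0.0517, edgeR adjusted p = 0.149). It was 1.36 without TfR1 knockout replicate 2 and passed (DESeq2 adjusted p = 4.64e-04), and 0.49 without TfR1 knockout replicate 1 (DESeq2 adjusted p = 0.235).

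Myc did not pass either. It measured 307, 290 and 276 normalized counts in Control, a narrow range, and 718, 273 and 600 in knockout libraries. TfR1 knockout replicate 2 lay below every Control library and the other knockout libraries lay above them. Its log2 fold change was 0.87 ± 0.35 (SE, DESeq2 adjusted p = 0.0793, edgeR adjusted p = 0.164). Without TfR1 knockout replicate 2, which was also the only knockout library with Xist above Ddx3y, it was 1.18 (DESeq2 adjusted p = 2.91e-07). Leaving out TfR1 knockout replicate 1 gave 0.59 (DESeq2 adjusted p = 0.266). With library sex as a covariate it was 0.55 (DESeq2 adjusted p = 0.279). Myc lies at chr15:61816946-61821929 on the plus strand.

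**Figure D2:**
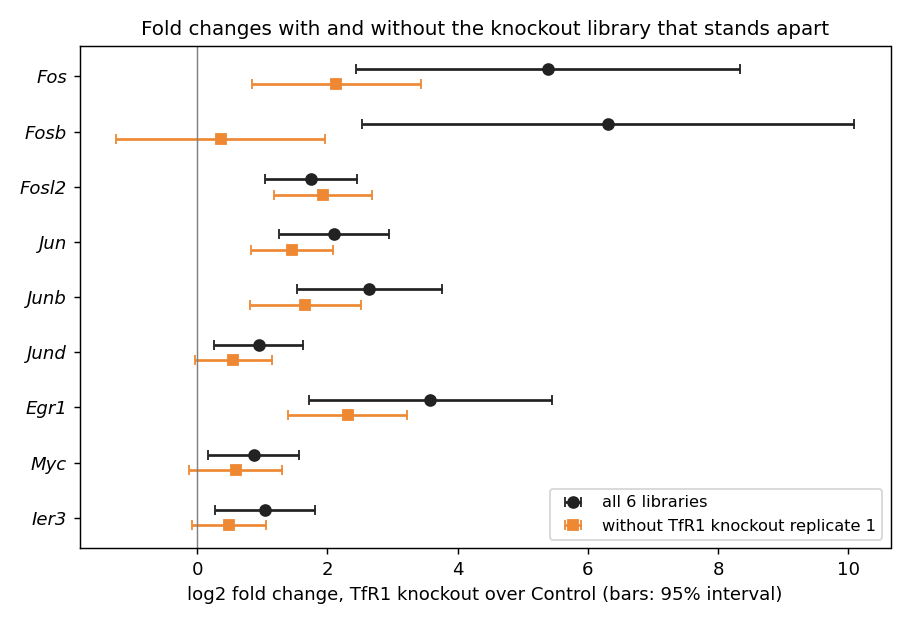
Log2 fold change, TfR1 knockout over Control, of 9 genes (Fosl1 is left out) with 95% intervals from the DESeq2 standard error; circles are all 6 libraries and squares are without TfR1 knockout replicate 1. Fos and Fosb moved the most between the fits, from 5.38 to 2.14 and from 6.30 to 0.36, while Fosl2 went from 1.75 to 1.93.

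Levels of different genes were compared as normalized counts per kilobase of exon, with mean ± SD over 3 libraries. In Control, Jund (896 ± 242) and Ier3 (741 ± 99.9) were highest and did not differ beyond their spread. Jun (232 ± 59.6), Fosl2 (201 ± 65.5), Junb (197 ± 72.5) and Egr1 (180 ± 93.6) followed, again within their spread. Myc (107 ± 5.74), within the spread of Egr1, Fos (46.7 ± 43.4) and Fosb (5.80 ± 4.89) came next. In knockout libraries, Egr1 (2150 ± 2189), Fos (1950 ± 3021), Jund (1725 ± 740), Ier3 (1527 ± 884), Junb (1230 ± 1080), Jun (992 ± 632), Fosl2 (676 ± 308) and Fosb (458 ± 781) followed each other, and no neighbours in this order differed beyond their spread. Myc (195 ± 84.9) lay below them, within the spread of Fosb.

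The makeup of AP-1 transcripts, as the share of each gene in the per-kilobase sum over the Fos and Jun genes, is a description with no test. Jund made up 53.8%, 61.9% and 55.1% of the sum in the Control libraries and 18.2%, 33.9% and 42.1% in the knockout libraries. The Fos family together made up 18.6%, 12.9% and 15.7% in Control, and 52.2%, 29.0% and 25.2% in knockout libraries. In knockout replicate 1 most of that was Fos, at 38.9% of the sum, whereas in replicates 2 and 3 it was Fosl2, at 23.1% and 19.0%. The sum itself was 2053, 1536 and 1145 per kilobase in Control and 13986, 4473 and 2641 in knockout libraries.

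**Figure D3:**
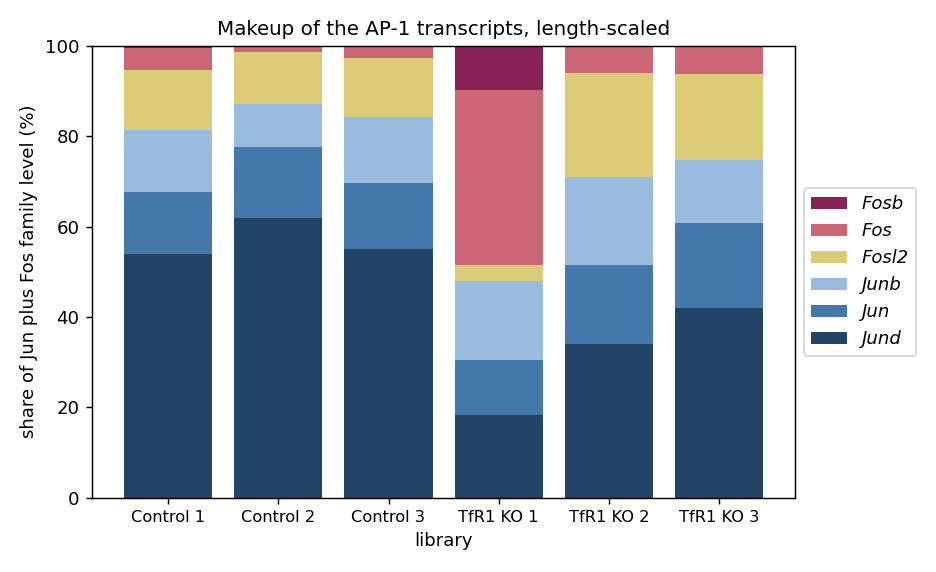
Share (%) of each gene in the summed normalized counts per kilobase of the Fos and Jun genes, by library; Fosl1 is too small to draw. Jund took the largest share in all 3 Control libraries and in knockout replicates 2 and 3, and Fos took the largest in knockout replicate 1.

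By DESeq2, most other immediate early genes rose. Of 35 listed, 34 were tested, 24 rose and 10 did not pass, with a median log2 fold change of 1.40 beside 0.01 over all tested genes. By DESeq2, 7.74% of all tested genes were higher, and edgeR called 14 of the listed genes higher. Atf3, a stress-induced bZIP factor, measured 80.8, 61.8 and 62.4 normalized counts in Control and 1322, 856 and 710 in knockout libraries (log2 fold change 3.81 ± 0.30 SE, DESeq2 adjusted p = 4.65e-33, edgeR adjusted p = 0.00172). Its knockout libraries lay far closer together than those of Fos. Zfp36, which destabilises inflammatory mRNAs, rose by 2.96 on the log2 scale (DESeq2 adjusted p = 7.80e-08, edgeR adjusted p = 0.0265). Nr4a1, an orphan nuclear receptor, had a log2 fold change of 2.83 (DESeq2 adjusted p = 0.0311, edgeR adjusted p = 0.0830). In Control replicate 1, with its adrenal transcripts, Nr4a1 measured 1236 normalized counts, against 296 and 175 in the other Control libraries. Adrenal cells also express Nr4a1, and the part of those transcripts in the result was not tested. Egr2, a relative of Egr1, had a log2 fold change of 3.44 (DESeq2 adjusted p = 0.00269, edgeR adjusted p = 0.112), but 452 normalized counts in knockout replicate 1 stood against 21.7 and 63.4 in replicates 2 and 3. TfR1 knockout replicate 1 was the highest library for 20 of the 34 genes. Without it, 19 of 34 rose, and leaving out each library in turn gave between 17 and 21 that rose.

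**Figure D4:**
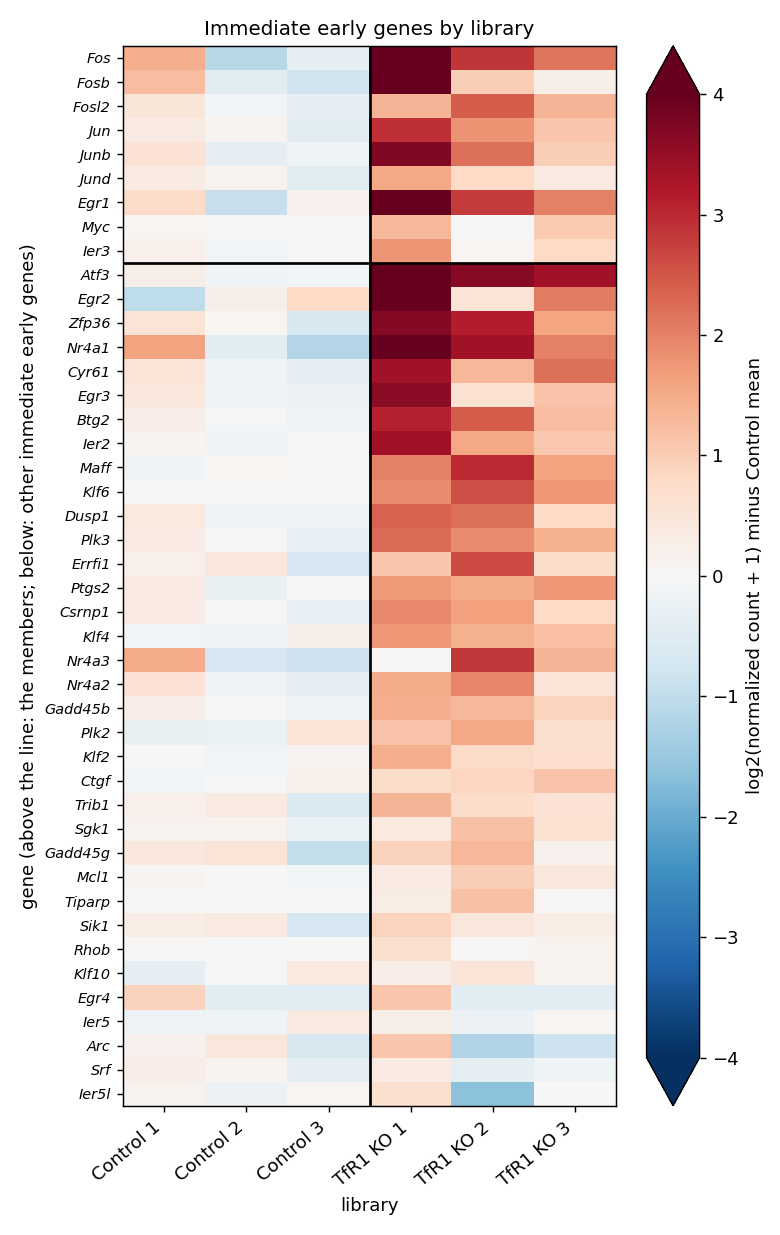
Log2(normalized count + 1) of 9 of the genes (above the line) and 35 other immediate early genes (below) in each library, minus the mean of the Control libraries; colours are capped at 4. The knockout columns are red for most genes, with knockout replicate 1 deepest for Fos, Fosb, Egr1 and Egr2, and Control replicate 1 is redder than the other Control libraries for Fos, Fosb, Nr4a1 and Nr4a3.

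Upstream of the early genes, 24 of 25 genes of the MAP kinase cascade and serum response factors did not pass, where 7.74% of all tested genes were higher and 7.18% lower. Of 10 other AP-1 and Maf dimer partners, Mafk rose (log2 fold change 1.19, DESeq2 adjusted p = 0.0132) and Batf3 fell (-1.46, DESeq2 adjusted p = 0.0102), and edgeR passed neither (adjusted p = 0.0909 and 0.0843). The call of Mafk was lost without Control replicate 1 or 3, and that of Batf3 without Control replicate 1 or 2 or TfR1 knockout replicate 3.

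EGF-family ligands activate this cascade through the ErbB receptors. Of 11 ligands and receptors tested, 6 rose, 1 fell and 4 did not pass (median log2 fold change 0.61). Among all tested genes, 7.74% were higher and 7.18% lower. Areg, the ligand amphiregulin, measured 1.65, 1.82 and 2.15 normalized counts in Control and 524, 229 and 225 in knockout libraries. All Control libraries were at or under the floor of 3 counts, and the groups did not overlap (DESeq2 adjusted p = 3.89e-22, edgeR adjusted p = 0.00171). Egf, made by the thick ascending limb and distal tubule, fell by 4.74 on the log2 scale (DESeq2 adjusted p = 1.99e-05, edgeR adjusted p = 0.0263). Its range in Control was wide, from 2314 to 18708 normalized counts, with Control replicate 3 lowest. The growth factor Nrg1 (log2 fold change 2.80) and the receptor Erbb3 (1.68) were also higher, with DESeq2 adjusted p of 1.21e-11 and 0.00879 and edgeR adjusted p of 0.00839 and 0.106.

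Genes that MAP kinase activity induces as feedback were higher, counted beside all tested genes, of which 7.74% were higher. Of 13 tested, 10 rose and 3 did not pass, with a median log2 fold change of 0.84, and edgeR called 4. Without Control replicate 1 or Control replicate 2, 6 rose. Dusp5 and Dusp4 encode phosphatases that inactivate ERK, and their log2 fold changes were 2.41 and 2.30 (DESeq2 adjusted p = 4.33e-04 and 8.26e-12, edgeR adjusted p = 0.0437 and 0.00694). Dusp4 measured 108, 119 and 109 normalized counts in Control and 525, 764 and 371 in knockout libraries, with no overlap. Etv4, an ETS factor downstream of ERK, rose by 2.04 on the log2 scale (DESeq2 adjusted p = 4.36e-10, edgeR adjusted p = 0.0108), and its knockout libraries ranged from 228 to 262. Dusp8, a phosphatase for JNK and p38, had a log2 fold change of 1.43 (DESeq2 adjusted p = 0.00115, edgeR adjusted p = 0.0537).

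By DESeq2, AP-1 target genes moved in both directions, beside 7.74% of all tested genes higher and 7.18% lower. Of 13 tested, 3 rose, 3 fell and 7 did not pass (median log2 fold change 1.01), and the 2 that edgeR called were both higher. Leaving out a library gave 3 to 5 that rose, 5 without Control replicate 3 or TfR1 knockout replicate 2, and 1 to 4 that fell, 1 without TfR1 knockout replicate 3. Spp1, the secreted matrix protein osteopontin, measured 31335, 34059 and 28115 normalized counts in Control and 129737, 113333 and 80904 in knockout libraries, a rise of 1.79 on the log2 scale (DESeq2 adjusted p = 1.28e-13, edgeR adjusted p = 0.0175). Plaur, the urokinase receptor, rose by 1.57 on the log2 scale (DESeq2 adjusted p = 9.26e-08, edgeR adjusted p = 0.0142), and Lif, a cytokine, by 2.97 (DESeq2 adjusted p = 6.33e-04, edgeR adjusted p = 0.0682). Ccnd1, a G1 cyclin, fell by 1.74 (DESeq2 adjusted p = 6.33e-04, edgeR adjusted p = 0.0581).

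Myc target genes were counted beside all tested genes, of which 7.74% were higher and 7.18% lower. Of 28 nucleolar target genes, which build ribosomes, 1 rose and 27 did not pass, with a median log2 fold change of 0.04. The gene that passed was Mybbp1a, at 0.47 (DESeq2 adjusted p = 0.0100, edgeR adjusted p = 0.0709), and its call was lost when Control replicate 1 or 2 or TfR1 knockout replicate 1 or 3 was left out. Of 15 metabolic and growth target genes, Eif4ebp1, a brake on translation, and Ldha, lactate dehydrogenase, rose and 13 did not pass. Eif4ebp1 had a log2 fold change of 1.26 (DESeq2 adjusted p = 4.77e-05, edgeR adjusted p = 0.0262), and Ldha 0.52 (DESeq2 adjusted p = 0.0457, edgeR adjusted p = 0.162). Of 14 Myc network partners and antagonists, Mxd3, a Max partner, fell by 2.20 on the log2 scale (DESeq2 adjusted p = 9.85e-06, edgeR adjusted p = 0.0313), Mlxip, a Mlx partner, rose (log2 fold change 0.72, DESeq2 adjusted p = 0.0283, edgeR adjusted p = 0.0883) and 12 did not pass. The call of Mlxip was lost when Control replicate 1 or 2 or TfR1 knockout replicate 2 or 3 was left out.

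Of 14 NF-kB response genes tested by DESeq2, 9 rose and 5 did not pass (median log2 fold change 0.95), where 7.74% of all tested genes were higher. edgeR called 6 of them higher, where 3.22% of its genes were called higher. Leaving out each library in turn gave between 7 and 10 that rose. Cxcl1 and Cxcl2 draw neutrophils, and their log2 fold changes were 3.10 and 3.51 (DESeq2 adjusted p = 3.05e-05 and 0.00135, edgeR adjusted p = 0.0375 and 0.0656). Cxcl2 was low, at 2.47, 2.73 and 10.8 normalized counts in Control and 96.5, 70.4 and 11.4 in knockout libraries. Control replicates 1 and 2 were under the floor of 3 counts, and knockout replicate 3 was nearly equal to Control replicate 3. Il1b, an inflammatory cytokine, had a log2 fold change of 2.68 and Nfkbia, the NF-kB inhibitor, 1.16 (DESeq2 adjusted p = 1.81e-04 and 7.37e-04, edgeR adjusted p = 0.0380 and 0.0385). Of 10 heat shock genes, 2 rose and 1 fell, where 7.74% of all tested genes were higher and 7.18% lower. Hspb1 and Hsp90ab1 had log2 fold changes of 1.08 and 0.62 (DESeq2 adjusted p = 0.0173 and 0.00310), and Dnaja1 -0.44 (DESeq2 adjusted p = 0.0392), and edgeR passed none of these 3 (adjusted p = 0.0927, 0.114 and 0.108). Without Control replicate 1 or 2 or TfR1 knockout replicate 3 a single heat shock gene passed, and it was higher.

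**Figure D5:**
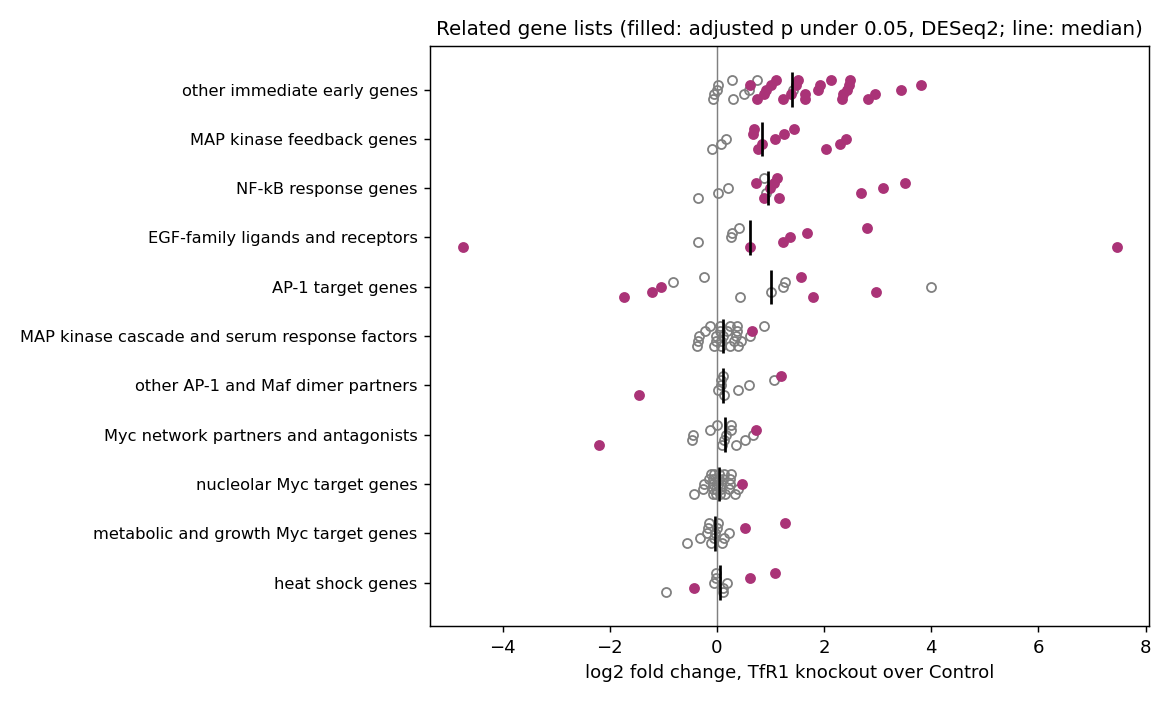
Log2 fold change, TfR1 knockout over Control, of each tested gene in 11 related lists; filled points passed at a DESeq2 adjusted p under 0.05 and lines are medians. Medians are 1.40, 0.84 and 0.95 for other immediate early genes, feedback genes and NF-kB genes, and lie near 0 for nucleolar Myc targets and heat shock genes.

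Several lists of cell type markers differed between the groups by DESeq2, and were counted beside all tested genes, of which 7.74% were higher and 7.18% lower. Macrophage markers summed to between 2484 and 3968 normalized counts in Control and between 5722 and 8767 in knockout libraries, with 5 of 8 higher and TfR1 knockout replicate 1 the highest. Tubule injury markers, such as Lcn2 and Havcr1, summed to between 10516 and 11505 in Control and 21122 and 38304 in knockout libraries, 7 of 8 were higher, and knockout replicate 1 was again the highest. Neutrophil markers summed to between 123 and 299 in Control and 262 and 887 in knockout libraries, with 3 of 4 tested higher by DESeq2 and replicate 2 the highest. The neutrophil calls were all lost when Control replicate 1 or 2 or TfR1 knockout replicate 2 or 3 was left out. Cycling cell markers fell, 6 of 7, as did 4 of 4 thick ascending limb and 3 of 3 distal convoluted tubule markers. Collecting duct markers were higher for 3 of 5 and summed to 27509 to 60481 in knockout libraries against 6073 to 12162 in Control. Most of the knockout sum was Aqp2, at 17805, 50719 and 23564 normalized counts, against 2409 to 5747 in Control. Avpr2 and Scnn1g did not pass (DESeq2 adjusted p = 0.858 and 0.735). The part of these cell types in the results was not tested. Podocyte, endothelium and stroma markers passed for 1 of 5 each, Wt1 and Flt1 higher and Col3a1 lower, and stroma markers were highest in Control replicate 3. Of the proximal tubule markers, 3 of 6 were lower and 1 higher. Lymphocyte markers summed to at most 105 normalized counts, with 1 of 5 lower. Of the red cell markers Hbb-b1, Hba-a1 and Hba-a2 were listed at 0 in all libraries, and Alas2 did not pass (DESeq2 adjusted p = 0.982). Fewer markers passed by edgeR, which called 4 macrophage, 4 tubule injury, 2 collecting duct, 1 podocyte and 1 proximal tubule markers higher. It called 4 cycling cell, 3 thick ascending limb, 3 distal convoluted tubule and 1 proximal tubule markers lower. No neutrophil, endothelium, stroma or lymphocyte marker passed by edgeR.

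The genes most like Fos, Egr1 and Myc across the 6 libraries were named by the root mean square difference of their centred log2(normalized count + 1) values, out of 12105 genes. For Fos they were Oas2 (1.01), Irf7 (1.25) and Gdf15 (1.26), where the profile of Fos had a standard deviation of 2.70 (log2). For Egr1, with a standard deviation of 1.88, they were Gdf15 (0.57), Oas2 (0.58) and Socs3 (0.61). Oas2 and Irf7 are interferon-stimulated genes. Irf7 measured 152, 143 and 107 normalized counts in Control and 3313, 357 and 176 in knockout libraries, with replicate 1 far above the others. Gdf15, a stress cytokine, measured 164, 117 and 77.5 in Control and 2323, 684 and 623 in knockout libraries. For Myc, with a standard deviation of 0.57, they were Ggt5 (0.16), Dusp6 (0.18) and Plec (0.18). Dusp6, a phosphatase for ERK, measured 1243, 1223 and 1104 in Control and 3383, 1571 and 2630 in knockout libraries, so that replicate 2 was the lowest knockout library, as it was for Myc.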

How the data were processed

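Poly-A RNA of 6 whole mouse kidneys (3 Control, 3 TfR1 knockout, P13) was counted. The authors deposited raw counts per gene, not normalized. Per the study's methods and the submitters' processing notes, single-end reads were processed with CASAVA 1.8.2 and Trimmomatic, aligned with TopHat2 2.0.11 to mm9, and uniquely mapped reads were counted with HTSeq. The gene annotation and strand setting are not given in the sources used here. Unique mapping lowers the counts of genes with close copies. Groups came from the sample labels. The labels call the libraries separate samples, and p-values measure the spread between these samples.

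Here, DESeq2 1.42.0 (R 4.3.3; Wald test, median-ratio size factors, Benjamini-Hochberg adjustment over all genes, independent filtering at 0.05) was fitted to all 24422 genes. Of these, 16509 received an adjusted p, with a lowest mean of 3.51 counts, and 29 received no p because of outliers. Normalized counts are counts divided by size factors. The fold changes are not shrunken. The alternatives were edgeR 4.0.16, limma 3.58.1 with voom, other size factors and filters, a replicate block and leaving out libraries. Those chosen after seeing the data were edgeR without TfR1 knockout replicate 1, leaving out the 2 libraries with most adrenal transcripts, and library sex as a covariate. The fits were also run on simulated counts drawn independently for each library. No simulated library was made to stand apart, so that run does not test the effect of such libraries on the calls.

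The genes and lists were chosen with earlier results of these data known, so lists are described by counts and medians with no set test. Named genes are the 10 genes, Tfrc, up to 4 genes per related list (DESeq2 adjusted p under 0.05, mean of at least 20 normalized counts, largest change), and the 3 genes (mean of at least 100) most like Fos, Egr1 and Myc, with a pseudocount of 1. Some listed genes are not reported here. The promoter motifs and the sex genes were chosen after values were seen. Exon lengths and positions came from GENCODE vM1 on NCBIM37, and promoters from RefSeq (GRCm38.p6). Deviations from the group mean were correlated between the Control and knockout libraries of each replicate number (-0.042, -0.010 and 0.082 over 13153 genes). With 3 libraries per group, these values cannot show whether the libraries were paired, and the main fit used no pairing.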

Additional observations from a re-analysis of the deposited data

How the results depend on the processing

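All fold changes of the 9 genes with enough counts kept their direction under every alternative run. DESeq2 called 5 genes higher, 4 of them at 2-fold or more. edgeR called 3, limma-voom 3 and edgeR without TfR1 knockout replicate 1 also 3. Leaving out each library in turn gave between 3 and 8 genes, and the same range at 2-fold. Without TfR1 knockout replicate 2 there were 8, without TfR1 knockout replicate 3 there were 7, and without Control replicate 2 there were 3. With TfR1 knockout replicate 2 or 3 left out, 2 knockout libraries remained, and DESeq2's outlier filter did not apply to them. Both fits kept TfR1 knockout replicate 1 and called Fos (DESeq2 adjusted p = 0.00464 and 0.00240) and Fosb (DESeq2 adjusted p = 0.00688 and 0.00467). Leaving out Control replicate 1 and TfR1 knockout replicate 3 gave 7 at 2-fold. The DESeq2 fit with the replicate block called 7, and 5 at 2-fold, adding Fos (adjusted p = 3.43e-05) and Ier3 (adjusted p = 0.0106). Whether the replicate numbers pair the libraries is not known. Other size factors each called 4, losing Jund, and DESeq2 without outlier filtering called 7, adding Fos (adjusted p = 0.00483) and Fosb (adjusted p = 0.0117). Over all genes, DESeq2 called 1277 higher and edgeR 493. The DESeq2 fits that left out a single library called between 664 and 1531 of all genes higher. Total-count scaling moved the median log2 fold change of all genes to -0.10. The cause of these differences was not tested, and 3 libraries per group limit the precision.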
